A study of Mus musculus with 12 samples.

Results

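The mouse genome carries 4 clusters of Hox genes, named A to D, and the 38 Hox cluster genes analysed here were 10 of HoxA, 10 of HoxB, 9 of HoxC and 9 of HoxD. They were chosen by gene name, with no measured value used in the choice, and stand beside 21857 protein-coding genes with a principal transcript in the same annotation. Merging the broad peaks of the 4 groups gave 273256 regions of accessible chromatin, and 95 of them overlapped the body of a Hox gene extended by 2 kb on each side. Of these 95 regions, 21 lay in HoxA, 23 in HoxB, 28 in HoxC and 23 in HoxD.

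Hox proteins are homeodomain transcription factors that give cells their position along the body axis. Within a cluster the genes stand in the order of the body levels at which they act: anterior paralogues (groups 1 to 4) pattern hindbrain and neck, central ones (groups 5 to 8) the thorax, and posterior ones (groups 9 to 13) lumbar and tail levels and the distal limb. The clusters are rich in CpG dinucleotides, Polycomb proteins silence the genes that a cell does not use, and fibroblasts keep the combination that matches their place of origin.

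The assay was Omni-ATAC-seq, in which the Tn5 transposase cuts open chromatin, applied to 4 groups of 3 libraries from 50000 cells each. The cells under study were Cas9-expressing mouse embryonic fibroblasts (MEFs) from E12.5 embryos (days of gestation) that carry a doxycycline-inducible OCT4, SOX2, KLF4 and MYC (OSKM) cassette, all were transduced with a single guide RNA, and all were sorted 96 h later. The control groups received a non-targeting guide and the knockout (KO) groups a guide against Zfp266, a zinc finger protein gene. MEF groups stayed in MEF medium, which holds FGF2 and heparin. Reprogramming groups spent the last 72 h in embryonic stem cell medium, which holds LIF (leukemia inhibitory factor) and neither of these. Doxycycline (300 ng/ml) and vitamin C (10 µg/ml) were added to it, and only cells with the cassette's fluorescent reporter were kept. The effects of medium and of OSKM therefore cannot be told apart here. By the study's methods, the reprogramming cultures alone were seeded among wild-type MEFs of the 129 strain, the strain that the labels give for all groups. How many of these cells remained after the sort was not tested. The KO cells were a transduced population and not a clone, the fibroblasts came from embryos made with 1 modified embryonic stem cell line, and accessibility does not show whether Zfp266 was lost. The labels number the replicates but do not say whether they were separate cultures.

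The peak lists were made from the merged replicates of each group, so every fold below is a single value with no replicate error and none of the peak comparisons has a test. The fold is the enrichment over background that the peak caller averaged over a whole broad peak, a level per base, and the width is therefore given beside the folds that matter. A region takes the highest fold of its peaks in a list, and 18 of the 95 Hox regions held more than 1 peak in some list. The depth of the libraries is unknown from these files. The lists held 161687 to 170135 peaks per group, of which 82 to 90 lay in Hox regions. Fibroblast identity was checked at the promoters of 8 fibroblast genes, all with a peak in both MEF lists. In both reprogramming lists 6 of the 8 had one, and Col1a1 and Pdgfra (a collagen chain and a growth factor receptor) did not. At Thy1, a fibroblast surface antigen, the fold was 3.83 in MEF control and 3.56 in MEF KO against 1.60 and 1.92 in reprogramming, the only 1 of the 6 past 1.5 times. Fn1, which encodes fibronectin, had 3.65 and 3.58 in MEF and 4.52 and 4.53 in reprogramming, and the median log2 ratio of the 6 was -0.02 in control and 0.02 in KO cells. Of 7 pluripotency genes, Zfp42 had a promoter fold of 8.76 and 8.95 in reprogramming control and KO against no peak in MEF control and 1.81 in MEF KO, and Nanog and Dppa4 had none in any list. Pou5f1, which encodes OCT4, had 1.63 in MEF control, no peak in MEF KO, and 2.56 and 2.84 in reprogramming. Other members were lower in reprogramming, Esrrb with 4.36 and 3.96 in MEF against 2.74 and 2.48 and Tdgf1 with 3.38 and 3.49 against 2.12 and 1.81, and Sall4 had 2.45 to 2.62 in all lists. In each arm 1 of the 4 pluripotency promoters with a peak in both lists was at least 1.5 times higher and 2 as far lower. Of 3 blood genes, Ptprc had no promoter peak in any list, Cd34 had folds of 5.13 to 5.47, and Gata1 had no peak in MEF and 2.00 and 2.72 in reprogramming. All 4 epithelial promoters had a peak in every list: Cdh1, which encodes E-cadherin, had 4.65 and 4.61 in MEF against 2.78 and 2.70 in reprogramming, and the keratin gene Krt18 had 2.01 and 2.19 against 3.04 and 2.68. What share of the Hox values these other cell states account for was not tested.

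The Hox clusters were covered by accessible chromatin far more densely than the genome as a whole. Peaks covered 33.3% and 33.5% of the 373 kb of Hox windows in MEF (control and KO) and 32.0% and 31.9% in reprogramming, against 5.14% to 5.36% of the assembled chromosomes. The Hox windows are gene bodies with their flanks, whereas the chromosomes include sequence far from genes. Windows of other genes were not measured, so this density is not shown to be particular to Hox genes. HoxA was the most densely covered cluster in each list, with 34.6% to 39.9% of its window in peaks, and HoxC the least, with 27.6% to 28.7%. The peaks were broad and low. In MEF control the Hox regions had a median covered width of 1548 bp against 705 bp over all regions, and a median fold of 2.46 against 3.15. These medians lay at percentile 87.0 of all regions for width and at percentile 28.2 for fold. The other 3 lists gave Hox median folds of 2.34 to 2.44 and median widths of 1499 to 1509.5 bp. The widest Hox region was a stretch of 5053 bp at chr6:52258879-52263931 (GRCm38.p6) that holds the start of Hoxa13, a gene of the forming digits and urogenital tract. Its fold was 2.16 and 2.02 in control and KO MEF and 2.04 and 1.97 in reprogramming. The next widest were a region of 4564 bp that holds the start of Hoxd11, a limb gene, with folds of 2.34 to 2.54, and a region of 4321 bp downstream of Hoxc4, described below.

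The sequence under these regions also set them apart in composition. In 300-base windows at the midpoints, the median GC content was 52.0% in the 95 Hox regions and 45.3% in the 273246 regions with readable sequence. The median ratio of observed to expected CpG was 0.546 against 0.181. Windows with a GC content over 50% and a CpG ratio over 0.6, as CpG islands have, made up 33.7% of Hox windows (32 of 95) and 4.04% of all windows. A KLF-like string (GGGNGTGG) was found in 23.2% of Hox windows and 11.8% of all, whereas an AP-1-like string (TGANTCA) was found in 3.16% of Hox windows (3 of 95) and 21% of all. SOX-like (CCATTGT), OCT-like (ATGCAAAT) and PBX-HOX-like (TGATTNAT) strings were found in 1, 0 and 2 Hox windows, against 5.74%, 2.04% and 6.23% of all windows. The homeodomain core TAATTA stood in 5 Hox windows (5.26%, against 7.39%), the E-box CANNTG in 65.3% (against 80.3%), and a CTCF-like string in none (against 1.31%). All strings were searched on both strands, and these are matches of letters, not sites of binding.

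**Figure D1:**
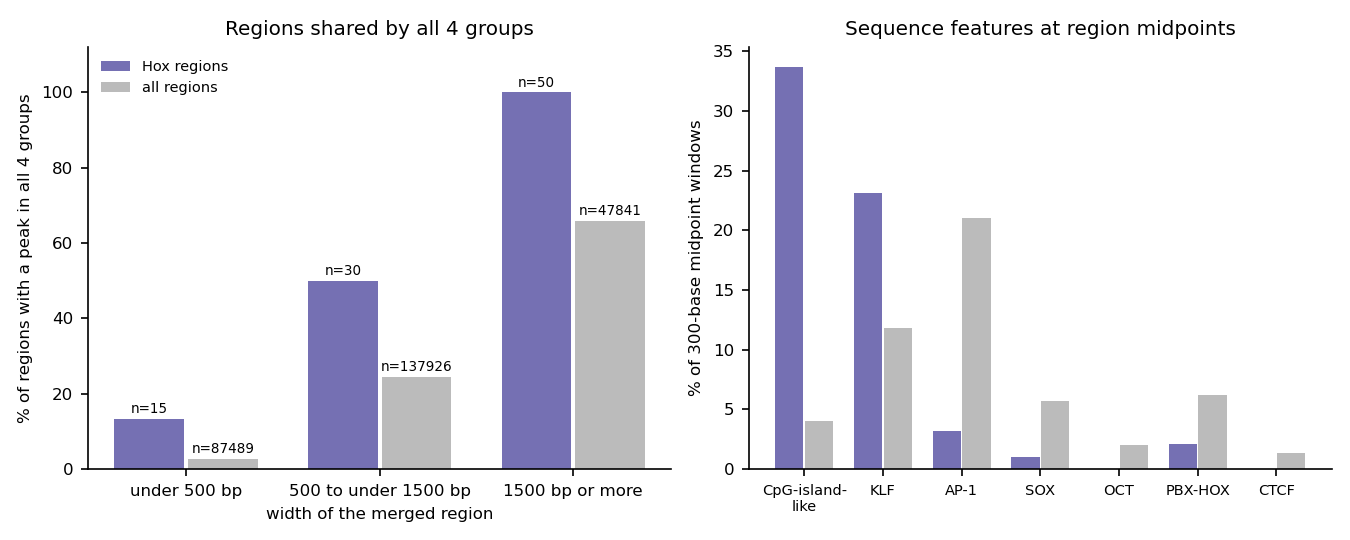
Left, the percent of merged regions that had a peak in all 4 groups, by width of the merged region, for Hox regions (purple) and all regions (grey), with the number of regions over each bar. All 50 Hox regions of 1500 bp or more were shared, against 65.9% of all regions of that width. Right, the percent of 300-base windows at region midpoints that met the CpG-island criteria or held each string. Hox windows were richer in CpG-island-like sequence and KLF-like strings and poorer in AP-1-like strings.

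The 4 windows printed here carry the changes described next and are shown for that reason, read 5′ to 3′ from the plus strand of GRCm38.p6, with matches to the KLF-like, AP-1-like, SOX-like, OCT-like, PBX-HOX-like or CTCF-like strings in capitals. The first is the Hoxd3 intron window with the largest difference between reprogramming and MEF (chr2:74733135-74733434, 43.0% of it masked as repeat). The second is a window in an intron of the antisense gene Hoxd3os1, seen in reprogramming lists alone (chr2:74709680-74709979). The third is a Hoxd3 intron window seen in MEF lists alone (chr2:74737631-74737930). The fourth is the Hoxd3 intron window with the highest fold of any Hox region in MEF control (chr2:74740483-74740782). A single match was found, a KLF-like string in the second window, and the CpG ratio was 0.966, 0.300, 0.176 and 0.780 in this order.
Hoxd3 intron, higher in reprogramming: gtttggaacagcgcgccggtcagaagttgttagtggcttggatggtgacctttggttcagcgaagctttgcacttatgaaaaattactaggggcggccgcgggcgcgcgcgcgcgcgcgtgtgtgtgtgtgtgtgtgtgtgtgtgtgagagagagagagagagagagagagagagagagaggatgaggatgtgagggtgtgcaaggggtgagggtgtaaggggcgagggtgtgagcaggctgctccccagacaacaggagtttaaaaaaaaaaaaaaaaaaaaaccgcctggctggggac
Hoxd3os1 intron, reprogramming lists alone: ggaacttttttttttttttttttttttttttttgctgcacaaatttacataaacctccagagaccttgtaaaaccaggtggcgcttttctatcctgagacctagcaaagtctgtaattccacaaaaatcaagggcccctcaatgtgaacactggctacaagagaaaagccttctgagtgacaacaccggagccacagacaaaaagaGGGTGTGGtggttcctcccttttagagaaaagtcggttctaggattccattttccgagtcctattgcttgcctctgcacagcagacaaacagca
Hoxd3 intron, MEF lists alone: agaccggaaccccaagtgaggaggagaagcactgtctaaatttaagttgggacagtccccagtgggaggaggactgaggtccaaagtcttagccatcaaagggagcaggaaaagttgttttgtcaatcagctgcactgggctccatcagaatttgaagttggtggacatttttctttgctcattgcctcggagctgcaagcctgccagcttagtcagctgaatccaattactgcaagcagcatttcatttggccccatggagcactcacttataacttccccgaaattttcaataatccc
Hoxd3 intron, highest fold in MEF control: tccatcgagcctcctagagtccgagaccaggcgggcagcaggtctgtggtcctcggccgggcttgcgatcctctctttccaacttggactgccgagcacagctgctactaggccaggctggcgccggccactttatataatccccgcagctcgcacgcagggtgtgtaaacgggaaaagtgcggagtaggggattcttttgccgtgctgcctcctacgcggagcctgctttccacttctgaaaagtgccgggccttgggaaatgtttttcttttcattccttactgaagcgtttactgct

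The first comparison asked how Hox accessibility differed between reprogramming cells and MEFs, in control and KO cells separately; the 2 arms share no library. Hox regions were mostly shared by all 4 groups and differed little in fold. A peak was present in all 4 lists at 67 of 95 Hox regions (70.5%), against 24.7% of all regions. Width went with sharing, and within each width class the Hox share was above that of all regions: 2 of 15 (13.3% against 2.67%) under 500 bp, 15 of 30 (50.0% against 24.5%) from 500 to under 1500 bp, and 50 of 50 (all, against 65.9%) from 1500 bp. The width is that of the 4 lists merged, so sharing itself widens a region in part by construction. The widest class has no upper limit, and widths were not matched within classes. Among the 68 Hox regions with a peak in both control lists, 4 (5.88%) had a fold at least 1.5 times higher in reprogramming, where 9.66% of all 74537 shared regions did. The fold was at least 1.5 times lower at 2 (2.94%), where 24.9% of all did. In KO cells, 6 of 68 (8.82%) were higher and 0 lower, against 10.0% and 23.8% of all 73261 shared regions. The share higher was thus near the background and the share lower under it. Regions were not matched for starting fold, whose median in MEF control was 2.46 over Hox regions and 3.15 over all. A region with no peak listed in reprogramming was not counted here. Whether the lower starting fold accounts for the share lower was not tested. The median log2 ratio was 0.04 in control and 0.08 in KO cells, against -0.22 and -0.21 over all regions, and its SD over regions was 0.34 in both arms against 0.60 and 0.59. Centred on the median of all regions, 13 Hox regions were higher and 0 lower in control cells (19.1%, against 15.6% higher and 14.3% lower of all), and 12 higher and 0 lower in KO cells (17.6%, against 15.7% and 14%). Where fold was multiplied by covered length, so that width counted too, 13 (19.1%) were higher and 12 (17.6%) lower in control cells, against 21.8% and 35.8% of all regions, and 14 (20.6%) and 9 (13.2%) in KO cells, against 21% and 37%.

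The values of both arms went together. Over the 67 Hox regions measured in both, the log2 ratios had Pearson's r of 0.869 and Spearman's rho of 0.826, as a description of regions that share libraries, base composition and neighbours. All 67584 regions measured in both arms gave an r of 0.938. The signs were alike at 57 of 67 Hox regions (85.1%, against 89.8% of all). A fold at least 1.5 times higher in both arms was seen at 1 Hox region, where 7.50% of all regions were, and at least 1.5 times lower in both at 0, where 19.4% were. As a yardstick, the largest difference in region fold between KO and control at any Hox region was 1.26 times. In both arms 10 Hox regions were higher in reprogramming by more than this (14.9%, against 13.4% of all regions) and 4 were lower (5.97%, against 34.9%). Of the 10, 8 had an anterior paralogue as the nearest start, as did 28 of the 68 regions shared in control cells, and this difference was not tested.

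**Figure D2:**
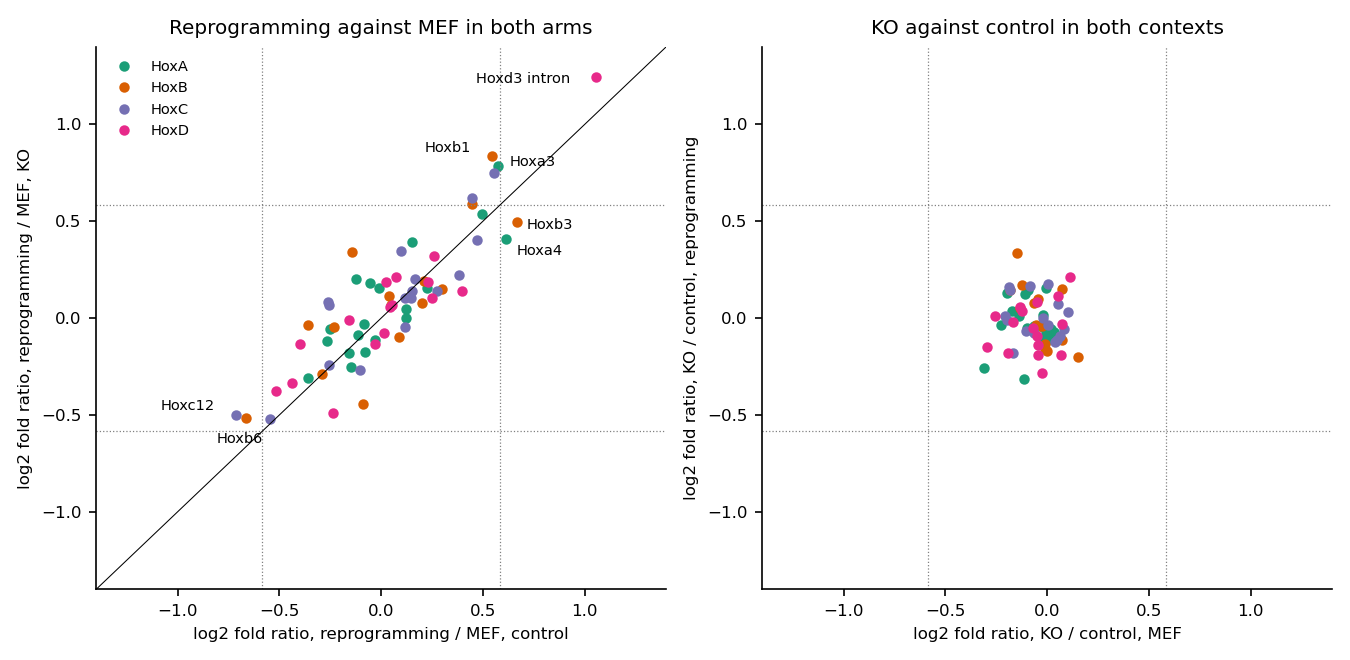
Left, the log2 ratio of the fold in reprogramming to that in MEF for each Hox region, in control cells (x axis) and KO cells (y axis), coloured by cluster. Right, the log2 ratio of KO to control in MEF (x axis) and in reprogramming (y axis), on the same scale. Dotted lines mark 1.5 times. The Hoxd3 intron region is past them in both arms, and on the right the points lie within 0.34 of 0 on the log2 scale.

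The region past 1.5 times in both arms lay in an intron of Hoxd3, an anterior gene of the neck vertebrae, at chr2:74732481-74734089. Its fold was 1.84 in MEF control and 1.68 in MEF KO, and in reprogramming it was 3.83 (control) and 3.99 (KO). The ratio was 2.08 in control and 2.37 in KO cells, and the covered length was 1281 and 1609 bp in MEF against 1111 and 1145 bp in reprogramming. The −log10 q was 2.5 and 2.0 in MEF against 24.6 and 24.3 in reprogramming. Its midpoint lay 6334 bp upstream of the principal Hoxd3 start.

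The other regions higher in both arms by more than the yardstick had smaller ratios. At chr11:96365830-96367553, in the Hoxb1 gene, which sets segment identity in the hindbrain, the fold was 2.42 and 2.23 in MEF control and KO against 3.53 and 3.97 in reprogramming. The covered length was 1612 and 1646 bp in MEF and 1279 and 1041 bp in reprogramming. At chr6:52170655-52173146 in a Hoxa3 intron (Hoxa3 shapes the thymus and throat) the fold was 2.65 and 2.35 in MEF against 3.94 and 4.05. The peak there was 2475 and 2489 bp wide in MEF and 622 and 612 bp in reprogramming, so the higher fold is an average over a shorter stretch. The region downstream of Hoxc4 at chr15:103038848-103043168 had folds of 2.38 and 2.08 in MEF and 3.51 and 3.49 in reprogramming, and was 3077 and 3040 bp wide in MEF and 1841 and 1630 bp in reprogramming. The region over the start of Hoxa2, which patterns the jaw and ear, at chr6:52163686-52166306, was 2415 to 2548 bp wide in all 4 lists. Its fold was 1.54 and 1.52 in MEF and 2.17 and 2.20 in reprogramming.

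A pair of further regions had larger ratios in control than in KO cells. In the region over the Hoxa4 start at chr6:52189086-52193108 the fold was 2.38 and 2.20 in MEF against 3.64 and 2.92 in reprogramming control and KO. The peak at the start was 3492 and 3490 bp wide in MEF, and 1164 and 2775 bp in reprogramming, where the control list had 2 peaks in the region, so the higher fold is again an average over a shorter stretch. A Hoxb3 coding exon region at chr11:96344201-96344997 had folds of 1.42 and 1.42 against 2.26 and 2.00. A region at chr6:52180192-52180830 within the Hoxa3 gene had a fold of 1.47 in MEF control and 2.35 in reprogramming control, and had no peak in MEF KO and a fold of 2.29 in reprogramming KO. In KO cells the Hoxc6 start region at chr15:103009239-103010011 had a fold of 1.76 in MEF and 2.71 in reprogramming, and in control cells 1.76 and 2.40. Hoxc6 is a thoracic and forelimb-level gene. Of the 10 regions, the last 2 lay in a Hoxb3 intron and in the Hoxc9 UTR exon. The Hoxb3 intron region at chr11:96325867-96327940 had folds of 1.66 and 1.60 in MEF over 2074 and 1087 bp, against 2.26 and 2.41 in reprogramming over 488 and 467 bp. The Hoxc9 region at chr15:102980725-102982267 had 2.36 and 2.53 in MEF over 1510 and 1519 bp, against 3.28 and 3.35 over 1194 and 1216 bp.

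The 4 regions lower in both arms by more than the yardstick lay at 2 central genes, 1 posterior and 1 anterior gene. At the start of Hoxb6, a thoracic gene, chr11:96298943-96299542 had folds of 2.78 and 2.66 in MEF against 1.76 and 1.85 in reprogramming. Over and upstream of the Hoxc12 start the region chr15:102934370-102937371 had folds of 3.24 and 2.81 against 1.98 and 1.99. The higher MEF values there were those of a second peak away from the start: the peak at the Hoxc12 start itself had 2.01 and 1.87 in MEF against 1.98 and 1.99, ratios of 0.985 and 1.06. The start of Hoxc8, which acts in thoracic vertebrae and motor neurons, lay in chr15:102990457-102991144, with folds of 2.99 and 2.94 against 2.05 and 2.05. The Hoxd3 intron region chr2:74740139-74741128, whose fold of 4.33 in MEF control was the highest of any Hox region, had 3.53 in KO MEF, and 3.02 and 2.72 in control and KO reprogramming cells. Other lower folds were smaller or differed between arms: a Hoxd3 UTR exon region (3.61 and 3.90 against 2.67 and 3.09), the start of Hoxd8 (3.55 and 3.49 against 3.02 and 2.48) and the start of Hoxb13 (3.25 and 3.62 against 3.05 and 2.66).

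Peaks gained or lost outright were few. In control cells 10 of 90 Hox regions (11.1%) had a peak in reprogramming and none in MEF, and 12 (13.3%) the reverse, against 36.2% and 34.6% of all regions with a peak in either list. In KO cells 10 of 91 (11%) were gained and 13 (14.3%) lost, against 35.4% and 35.0%. In both arms 6 of 95 Hox regions (6.32%) were gained and 11 (11.6%) were lost, where 27.4% and 27.5% of all regions were. A lost or gained peak is one that the caller did not list in a group and need not be closed: the lowest −log10 q in the lists was 1.00 to 1.02, and the 11 lost regions had a median −log10 q of 4.56 in MEF control against 20.8 at the regions shared by all groups. None of the 17 lay in HoxA. With sharing defined by a reciprocal overlap of at least 50%, 33.3% of Hox regions counted as gained and 35.6% as lost in control cells, against 47.6% and 46.0% of all regions, since peaks of different extent in the same region then count as not shared.

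The 6 gained regions had folds of 1.75 to 3.02 in reprogramming control and 2.02 to 2.87 in reprogramming KO. The highest was chr15:102993983-102994886, in an intron of Hoxc5 and 3827 bp downstream of the Hoxc8 start, with 3.02 and 2.87. Next came the window in Hoxd3os1 printed second above (region chr2:74709650-74710011), with 2.43 and 2.73. The others lay in an intron of Hoxb3 (2.13 and 2.20), downstream of Hoxc12 (1.75 and 2.03), in an intron of Hoxc4 (1.88 and 2.07) and in an intron of Hoxd3 (2.18 and 2.02). None of the 6 held the start of a Hox gene, and 5 of the 6 midpoints were intronic.

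The 11 lost regions had folds of 1.5 to 2.69 in MEF control and 1.42 to 2.54 in MEF KO, and 8 of the 11 midpoints were intronic. Of the 11, 1 held a principal start, that of Hoxd4, a gene of the hindbrain and neck, at chr2:74721690-74722184, with folds of 2.69 and 2.15 and no peak in reprogramming. The third printed window lies in chr2:74737435-74738127, an intron of Hoxd3, with 2.47 and 2.54. The remaining lost regions were 2 in Hoxb3 introns (1.64 and 1.53, and 1.51 and 1.63), and 1 each downstream of Hoxb13 (2.17 and 2.17), in Hoxb6 (1.5 and 1.42), downstream of Hoxb5 (1.90 and 1.82), in the Hoxc13 UTR exon (1.75 and 1.79), near Hoxc10 (2.14 and 2.00), in Hoxc6 (1.81 and 1.73) and in Hoxd4 (1.74 and 2.15). Lost and gained regions adjoined in a pair of places. In Hoxb3 a lost region of 301 bp ended 14 bp before a gained region of 1335 bp, and in Hoxd3 the lost region above ended 546 bp before the gained one. Windows of gained and lost regions had median CpG ratios of 0.204 and 0.312, against 0.599 at the regions shared by all groups.

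**Figure D3:**
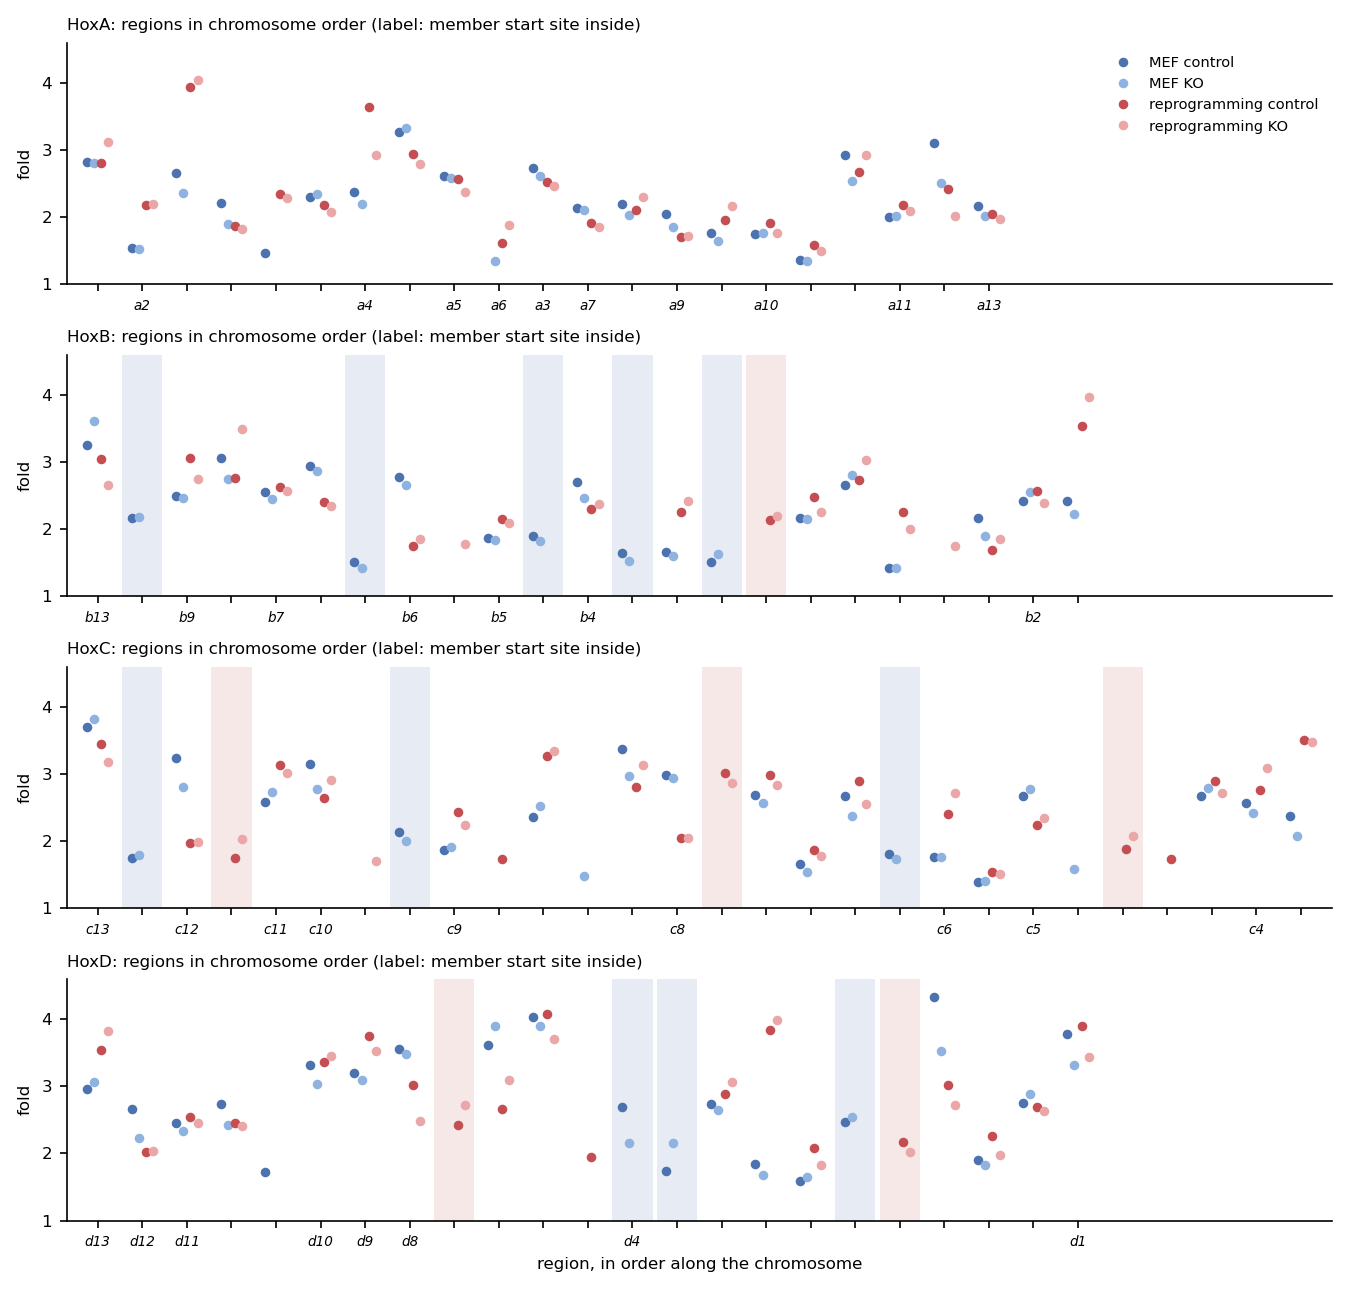
The fold over background of each Hox region in each group (points), in chromosome order along the 4 clusters, with the Hox start inside a region given on the x axis. Shading marks regions lost (blue) or gained (red) in both arms, and a missing point is a group without a peak. HoxA has no shaded region, and most shaded regions carry no start.

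The promoters of the 38 Hox genes were then compared by the highest fold of any peak within 500 bp of the principal start. In MEF control 35 of 38 (92.1%) had a peak, against 67.4% of all protein-coding genes, with a median fold of 2.58 against 4.83. The KO MEF list had 35, and the reprogramming lists 35 (control) and 34 (KO), with medians of 2.45, 2.53 and 2.38 against 4.75, 3.91 and 3.82 over all genes. Hox promoters were therefore more often open and lower in fold than promoters at large, and their median moved little between MEF and reprogramming. The median log2 ratio was 0.04 in control and 0.06 in KO cells, against -0.25 and -0.27 over all genes. These traits were not particular to Hox genes. The 5 Evx and Cdx promoters described below all had a peak, with a median fold of 2.30 in MEF control. Their median log2 ratio was -0.05 in control and 0.12 in KO cells. A ratio of at least 1.5 was seen at 1 of 34 Hox promoters in control cells, Hoxa4 (2.38 over 3492 bp and 3.64 over 1164 bp), and at 1 of 32 in KO cells, Hoxc6, against 1.54% and 1.46% of all promoters. A ratio as far below was seen at 1 in control cells, Hoxb6 (2.78 and 1.76), and at 0 in KO cells, against 17.4% and 18.4%. Promoters were not matched for starting fold either.

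Within clusters the levels ran as follows in MEF control. In HoxA the highest were Hoxa3 (2.73), Hoxa5 (2.62, a lung and rib gene) and Hoxa4 (2.38), and the lowest with a peak were Hoxa2 (1.54), Hoxa10 (1.75, a uterine and lumbar gene) and Hoxa11 (1.99, a gene of forearm and kidney). HoxB ran from Hoxb13 (3.25), Hoxb6 (2.78) and Hoxb4 (2.70) down to Hoxb2 (2.43), Hoxb1 (2.42) and Hoxb5 (1.86). HoxC ran from Hoxc13 (3.71, a hair follicle gene), Hoxc10 (3.16) and Hoxc8 (2.99) down to Hoxc12 (2.01), Hoxc9 (1.87) and Hoxc6 (1.76). HoxD had the highest median of the clusters, 3.08, from Hoxd1 (3.79), Hoxd8 (3.55) and Hoxd10 (3.32, a motor neuron gene) to Hoxd4 (2.69), Hoxd11 (2.45) and Hoxd12 (1.64). With 1 value per group, neighbours in these orders cannot be told apart from library noise.

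In reprogramming control the highest promoters were Hoxa4 (3.64), Hoxb1 (3.53), Hoxc13 (3.44) and Hoxd1 (3.90) in their clusters, and the lowest with a peak were Hoxa6 (1.61), Hoxb6 (1.76), Hoxc12 (1.98) and Hoxd12 (2.02). By paralogue class, the medians cover genes with a peak alone, so the genes differ somewhat between lists. The median promoter fold of anterior genes was 2.62 and 2.43 in MEF (10 and 9 of 11 genes, control and KO) and 2.58 and 2.38 in reprogramming (9 and 9). Central genes had 2.62, 2.51, 2.20 and 2.22 (9, 10, 10 and 10 of 11). Posterior genes had 2.47, 2.40, 2.59 and 2.66 (16, 16, 16 and 15 of 16). Hoxb8 had no peak within 500 bp in any list, and Hoxd3 had one in reprogramming KO alone (2.02), where the peak of the same region in reprogramming control (2.18) ended short of the 500 bp limit. Of the other promoters without a peak in some list, Hoxd4 lacked one in both reprogramming lists, and Hoxa6 in MEF control had none against 1.34 in MEF KO. These values hold for the principal starts alone. The 5′ ends of the Hoxd3 and Hoxd4 gene features lay elsewhere, in the Hoxd3 UTR exon region at chr2:74711732-74712582. That region had a peak in all 4 lists, with 3.61 and 3.90 in MEF and 2.67 and 3.09 in reprogramming. Hoxb1 and Hoxa9 lacked one in reprogramming KO and Hoxb3 in MEF KO, where a peak of the same region ended short of the 500 bp limit.

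**Figure D4:**
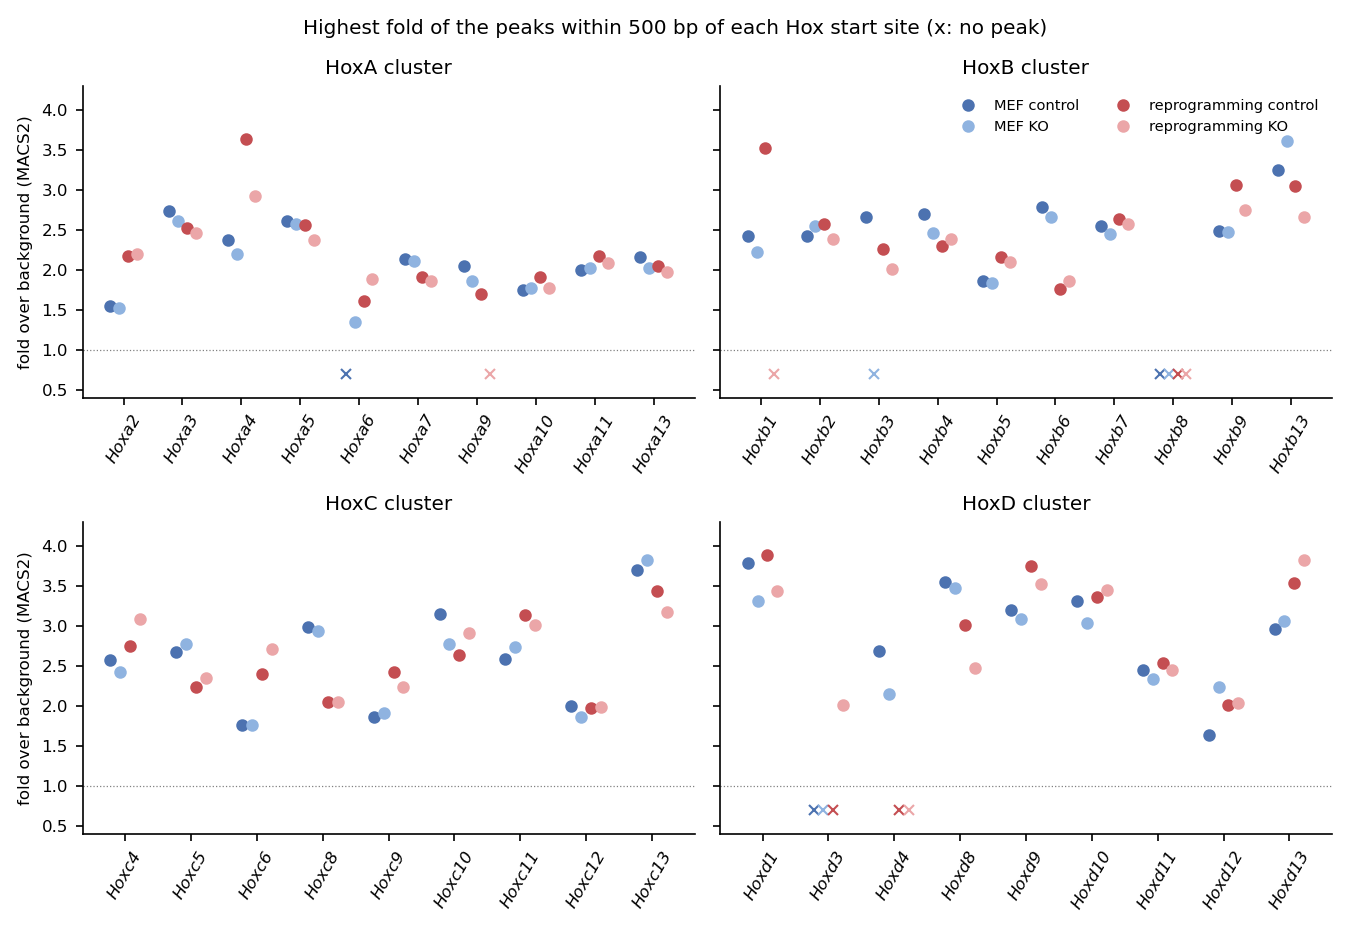
The highest fold over background of the peaks within 500 bp of each Hox start (y axis) for each gene of the 4 clusters in paralogue order (x axis), with 1 point per group and a cross where a group had no peak. The 4 points of most genes lie close together, with gaps between MEF (blue) and reprogramming (red) at genes such as Hoxa2, Hoxa4, Hoxb1, Hoxb6, Hoxc6, Hoxc8 and Hoxd8, and Hoxd4 has crosses for both reprogramming groups.

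The second comparison asked whether loss of Zfp266 changed Hox accessibility. The deposited tables of KO against control list the intervals past an adjusted p of 0.05, which were 480 in MEF and 1608 in reprogramming, 0.176% and 0.588% of the merged regions. None of the 95 Hox regions was among them, in either context, and none lay within 5 kb of a Hox gene. Counts for the libraries are given for listed intervals alone, so the edgeR test planned for Hox intervals had no interval to run on and no per-library Hox values can be shown. Absence from a list does not show that a Hox region was unchanged, and the smallest absolute log2 ratio of mean normalised counts among listed intervals was 0.34 in MEF and 0.25 in reprogramming.

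The merged peaks showed small differences between KO and control at Hox genes. In MEF, 78 Hox regions had a peak in both lists and 0 were at least 1.5 times higher or lower in KO, against 0.0840% and 0.102% of all shared regions. The log2 ratios ran from -0.32 to 0.31 with a median of -0.05, against -0.03 over all regions. In reprogramming, 75 were shared and again 0 were past 1.5 times in either direction, against 0.202% and 0.142%. There the log2 ratios ran from -0.32 to 0.34 with a median of -0.04, against -0.02. The share past 1.5 times is so low over all regions that a count of 0 at Hox regions is near the background. With fold multiplied by covered length, 8 of 75 (10.7%) were past 1.5 times higher in KO in reprogramming and 0 lower, against 6.94% and 9.15% of all regions.

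The largest single differences were as follows. In MEF the KO fold was higher at the Hoxd4 region that reprogramming cells lacked (1.74 in control, 2.15 in KO) and lower at the Hoxd4 start (2.69 and 2.15), in a noncoding exon downstream of Hoxa13 (3.10 and 2.50), in the Hoxd3 intron with the highest fold (4.33 and 3.53), in the region that holds the Hoxd12 start (2.67 and 2.24) and in a Hoxa3 intron (2.21 and 1.89). In the last 2 the MEF control list had 2 peaks and the KO list 1. At the Hoxd12 start itself the direction was the opposite: the peak there had 1.64 over 1033 bp in control and 2.24 over 3514 bp in KO, a ratio of 1.36. In reprogramming it was higher between Hoxb8 and Hoxb9 (2.77 over 2388 bp in control, 3.49 over 1523 bp in 2 peaks in KO), at the Hoxa6 start (1.61 and 1.88) and downstream of Hoxc12 (1.75 and 2.03), and lower at Hoxa4 (3.64 and 2.92), at the start of Hoxd8 (3.02 and 2.48), downstream of Hoxa13 (2.42 and 2.02) and at the start of Hoxb13 (3.05 and 2.66). Among the 5 largest in each direction, the regions not listed here had ratios of 1.07 to 1.08 in MEF and of 0.875 and 1.13 to 1.16 in reprogramming, besides Hoxb13. The region downstream of Hoxa13 was lower in KO in both contexts, by ratios of 0.806 and 0.836. The Hoxb13 start was higher in KO in MEF (ratio 1.11) and lower in reprogramming (ratio 0.870), and whether these differ was not tested.

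Peaks listed in 1 arm alone were few and weak. In MEF 3 Hox regions of 83 (3.61%) had a peak in KO alone and 2 (2.41%) in control alone, against 5.77% and 7.57% of all regions. Those in KO alone were at the Hoxa6 start (1.34), in the Hoxc9 UTR exon (1.49) and in a Hoxc4 intron (1.59), and those in control alone were in the Hoxa3 gene (1.47) and upstream of Hoxd10 (1.72). In reprogramming 3 of 81 (3.70%) had a peak in KO alone and 3 (3.70%) in control alone, against 7.50% and 11.0%. The former lay in coding exons of Hoxb6 (1.78), Hoxb3 (1.74) and Hoxc10 (1.71), and the latter in introns of Hoxc9 (1.73), Hoxc4 (1.74) and Hoxd4 (1.94). The shares in reprogramming depended on the setting. With a reciprocal overlap of at least 50%, 16% were in KO alone and 16% in control alone, against 14.3% and 17.8% of all regions. With peaks of a −log10 q of at least 5 alone, they were 1.52% and 9.09%, against 5.30% and 9.72%.

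The listed interval nearest to a cluster was 31.4 kb beyond the end of HoxB, at chr11:96399663-96401748, in intergenic sequence. Its normalised counts in the MEF control libraries were 206, 199.7 and 199, and in the MEF KO libraries 288, 287 and 256 (means 202 ± 4.08 and 277 ± 18.2, SD, n = 3). The groups do not overlap, a log2 difference of 0.46, but the interval was listed for differing in these libraries and is given no test. The nearest to HoxA was 326 kb away in an intron of Hibadh, with 59.0, 44.9 and 60.2 in MEF control against 192, 197 and 199 in MEF KO. For HoxC and HoxD in MEF the nearest were 1689.6 and 4333 kb away. In reprogramming the nearest listed intervals were 427 kb from HoxB in an intron of Cbx1, 494 kb from HoxC in an intron of Sp1, 871 kb from HoxD and 1942 kb from HoxA.

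Genes that work with or beside the Hox genes were read the same way. All 9 promoters of TALE cofactors, the homeodomain partners with which Hox proteins bind DNA, had a peak in every list, and 0 of 9 were past 1.5 times between reprogramming and MEF in either arm, where 1.54% (control) and 1.46% (KO) of all promoters were higher and 17.4% and 18.4% lower. Their folds in MEF control ran from 2.32 at Pbx2 to 6.71 at Pbx4. All 5 promoters of the Evx and Cdx homeobox genes were open at 1.68 (Cdx1) to 2.55 (Cdx2) in MEF control, and 0 of 5 were past 1.5 times. The 11 chromatin regulators of Hox genes, Polycomb subunits such as Ezh2 and the activating methyltransferases Kmt2a and Kmt2b, also gave 0 of 11. Their median log2 ratio was -0.23 in control and -0.17 in KO cells, near the median of all promoters. Of the 11 genes flanking the clusters, 9 had a promoter peak in MEF control, with a median fold of 5.82, over the Hox median of 2.58. In control cells Skap2 (7.61 to 4.82) and Atp5g3 (5.59 to 3.66) were at least 1.5 times lower in reprogramming, and in KO cells Ttll6 (5.44 to 2.88) and Atp5g3 (5.36 to 3.41), 2 of 9 (22.2%) in each arm and near those shares of all promoters. Among all these genes, the windows of Hibadh in MEF and of Pbx4 in reprogramming each held 1 listed interval, both higher in KO. So did those of the marker genes Esrrb in MEF and Sall4 and Fn1 in reprogramming. Most listed intervals were higher in KO, 479 of 480 in MEF and 1522 of 1608 in reprogramming. The share of all genes with a listed interval is not given here, so these counts have no background.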

How the data were processed

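The authors aligned reads with BWA to GRCm38.p6 and called broad peaks with MACS2 (FDR under 0.1) on the merged replicates of each group, so there was 1 list per group. The deposited peak lists hold a ratio (the fold over background) and the −log10 of the q-value, and number the stronger blocks inside each peak. The deposited tables of KO against control hold raw read counts and DESeq2-normalised counts (a signal scaled by size factors) per library, for intervals past an adjusted p of 0.05 alone. Their fold change and p-value columns were not used. Raw counts in listed intervals summed to 33936 to 86490 per MEF library and 141616 to 324141 per reprogramming library, which is not their depth.

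Peaks of the 4 lists were merged where they touched (273256 regions, all 480 and 1608 listed intervals among them). A region overlapping a Hox gene body of GENCODE M21 extended by 2 kb was a Hox region, and the highest fold of its peaks was its value in a group. Gained and lost mean a peak in 1 list and none in the other. Regions were counted at a ratio of 1.5, without a test, beside the same share of all regions. Promoters were the principal (APPRIS) starts within 500 bp. Because GENCODE draws Hoxc5 and Hoxa3 over several neighbours, 1 region can belong to more than 1 gene. Regions named are the 5 largest differences in each direction per comparison, the 3 widest, those gained or lost in both arms, and the 3 highest and lowest promoters per cluster; the yardstick of KO against control, and the regions beyond it that the rule had not named (at Hoxa2, Hoxb3 and Hoxc9), were added after values were seen. The Hox genes were taken by name, and they and the gene lists were put up for description with earlier results of these data known. Sequences came from the GRCm38.p6 genome. Python 3.11.15 with numpy 2.4.6, pandas 2.3.3, scipy 1.17.1 and matplotlib 3.10.9 were used, and the merging and counting were tested on simulated peak lists. Alternatives are given below.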

Additional observations from a re-analysis of the deposited data

How the results depend on the processing

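Of 104 alternatives tried for 22 percents or counts, 84 stayed within the 95% Wilson interval of the percent given in the report, or at the count of 0 listed intervals, and 20 moved. These intervals cover counting error only. The median log2 ratios have no replicate error to set a change against. Centring took that of reprogramming to MEF from 0.04 to 0.26 in control and from 0.08 to 0.29 in KO cells, and fold times covered length took it to -0.07 and 0.00. Other settings gave 0.00 to 0.06 and 0.07 to 0.08. The covered-length alternative was chosen after seeing the data. With fold times covered length, the percent of Hox regions at least 1.5 times higher and lower in reprogramming was 19.1% and 17.6% in control cells (21.8% and 35.8% of all regions) and 20.6% and 13.2% in KO cells (21% and 37%), and in reprogramming 10.7% were higher in KO than in control. With peaks of a −log10 q of at least 5 alone, 1.85% were higher and 0% lower in control cells (6.69% and 21.3% of all regions). Centring on the median of all regions gave 19.1% higher and 0% lower in control cells. At 2-fold, 1.47% were higher and 0% lower in control cells and 1.47% higher in KO cells (3.67%, 8.29% and 3.57% of all regions). With a reciprocal overlap of at least 50%, 33.3% of Hox regions were gained and 35.6% lost in control cells, 29.7% gained and 33.0% lost in KO cells (46.9% and 46.6% of all regions), and 16% had a peak in KO alone and 16% in control alone in reprogramming (14.3% and 17.8% of all regions). With the 5′ end of the gene feature as the start, 0% of Hox promoters were lower in control cells and 0% higher in KO cells. The gene body alone or extended by 5 kb moved no percent, and a length-weighted mean fold moved none. The cause of these moves was not tested, other than that fewer peaks, another threshold or another definition of sharing entered by construction. No paired analysis was possible because no Hox interval is in the tables that give counts per library. For the same reason the edgeR and DESeq2 fits, the low-count filter and the fits without 1 replicate were not run, and the merged peak lists allow none. Depth limits which low peaks were listed, and it is unknown here.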
